A study of Mus musculus with 4 samples.

Results

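The regions described here are the RNA polymerase II (Pol II) peaks on mouse chromosome 13 in osteoblasts treated with OSS_128167. They are the rows for chromosome 13 in the peak list deposited for that library, 669 of 40748 peaks. Chromosomes 12, 14 and 15 of the same list, with 1786, 1858 and 1862 peaks, are set beside them. Chromosome 13 was chosen by its low peak density in this list, so that density and everything counted from the same list describe the choice and carry no test. The density of chromosome 13 was 5.70 peaks per Mb, and the other 18 autosomes ran from 14.9 on chromosome 12 to 19.3 on chromosome 11. No autosome lay between chromosomes 13 and 12, and the X chromosome held 3.30 per Mb.

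Pol II was measured by ChIP-seq, which recovers crosslinked chromatin with an antibody and sequences it, in primary mouse osteoblasts. Per the labels, these were adherent bone-derived cells from young animals, passaged as BMSCs and then given osteogenic medium for 3 days, and the antibody, from CST, recognised Pol II. Of the 4 samples, 1 Pol II library and 1 input are titled WT Osteoblasts, and 1 of each is titled as treated with OSS_128167, an inhibitor of the chromatin deacylase SIRT6. The treatment field names OSS_128167 for all 4, so "untreated" rests on the titles alone. Neither the number of animals nor the dose is given in the sources used here, and with 1 library per condition no difference had a replicate check. In the OSS_128167 list 6 of 10 osteoblast markers had a peak at a gene end (Col1a1, Col1a2, Postn, Runx2, Sp7 and Sparc), and Alpl, Bglap, Ibsp and Spp1 had none. A peak at a gene end was found for 1 of 4 macrophage markers, 0 of 3 adipocyte, 1 of 3 chondrocyte and 1 of 3 endothelial markers. Of all 21631 protein-coding genes, 14.3% had one. Read totals are not in the lists, and the depth of either library is unknown.

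Pol II transcribes protein-coding genes and many non-coding ones. It commonly pauses just downstream of a start site and slows again past the end of a gene, so a Pol II ChIP-seq peak list from a deep library is usually richest at gene boundaries. Replication-dependent histone genes are a special class: they are short, lack introns, are transcribed mainly in S phase, and end in a stem-loop in place of a poly(A) tail. The largest histone cluster of the mouse lies on chromosome 13.

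Promoters that overlap peaks of high fold enrichment, in part or in full, are printed as examples of marked sequence on this chromosome. The 250 bases before the annotated start are given 5′ to 3′ on the gene's strand, from RefSeq, build GRCm38.p6. Capitals mark matches to 3 motifs, on the printed strand or as the reverse complement: the TATA box in the form TATAAA, the CCAAT box, and the GC box in the form GGGCGG. Matches were counted separately and may overlap. The first 3 belong to the histone genes H4c18 (chr13:21832198-21832447, minus strand), H1f3 (chr13:23554782-23555031, plus strand) and H1f2 (chr13:23738557-23738806, plus strand), which encode a core histone H4 and a pair of linker histones. The other 3 are the promoters of highest fold among genes outside the histone list, H4bc24 (chr13:21833493-21833742, plus strand), 2210016F16Rik (chr13:58385226-58385475, minus strand) and Arrdc3 (chr13:80883134-80883383, plus strand). The peak at Arrdc3 begins at 80883378, so it overlaps only the last bases of that stretch. H3c7, a histone gene with a peak of fold 11.5, has no strand in the sources used here and is not printed.
H4c18: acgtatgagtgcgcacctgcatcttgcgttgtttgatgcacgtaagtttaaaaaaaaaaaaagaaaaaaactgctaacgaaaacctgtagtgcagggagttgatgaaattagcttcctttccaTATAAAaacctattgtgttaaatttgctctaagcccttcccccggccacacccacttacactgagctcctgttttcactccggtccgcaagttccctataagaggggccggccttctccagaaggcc
H1f3: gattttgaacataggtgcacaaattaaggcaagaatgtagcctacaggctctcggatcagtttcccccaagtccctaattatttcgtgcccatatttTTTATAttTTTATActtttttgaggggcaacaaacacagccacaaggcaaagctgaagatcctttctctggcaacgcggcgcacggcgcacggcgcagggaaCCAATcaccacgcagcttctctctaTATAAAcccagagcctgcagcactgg
H1f2: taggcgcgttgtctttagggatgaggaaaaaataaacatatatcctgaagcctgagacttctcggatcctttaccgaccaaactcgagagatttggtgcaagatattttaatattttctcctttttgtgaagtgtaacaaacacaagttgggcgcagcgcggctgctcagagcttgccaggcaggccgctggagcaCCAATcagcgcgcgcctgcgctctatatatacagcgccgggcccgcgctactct
H4bc24: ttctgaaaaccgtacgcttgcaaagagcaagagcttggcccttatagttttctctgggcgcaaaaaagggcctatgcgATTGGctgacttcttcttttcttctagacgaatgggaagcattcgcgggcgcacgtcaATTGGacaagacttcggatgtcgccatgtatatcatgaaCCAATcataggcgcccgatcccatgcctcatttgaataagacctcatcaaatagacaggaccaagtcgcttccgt
2210016F16Rik: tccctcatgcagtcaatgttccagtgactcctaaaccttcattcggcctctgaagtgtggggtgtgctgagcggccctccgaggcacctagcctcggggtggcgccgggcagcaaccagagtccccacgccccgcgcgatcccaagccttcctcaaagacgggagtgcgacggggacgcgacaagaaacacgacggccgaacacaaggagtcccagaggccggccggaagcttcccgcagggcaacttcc
Arrdc3: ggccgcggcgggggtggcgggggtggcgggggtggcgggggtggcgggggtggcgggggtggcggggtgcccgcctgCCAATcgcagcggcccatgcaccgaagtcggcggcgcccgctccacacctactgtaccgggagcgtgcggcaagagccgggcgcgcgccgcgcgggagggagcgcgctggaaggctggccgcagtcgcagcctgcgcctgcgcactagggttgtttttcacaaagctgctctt
The histone promoters had GC contents of 45.2%, 47.6% and 50.4%, against 64.4% for 2210016F16Rik and 76.0% for Arrdc3. H4bc24 is histone-named, though the symbol pattern of the list did not take it, and it shares 1 peak with H4c18. Its promoter held 3 CCAAT matches and a GC content of 48.0%.

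Of 843 promoter windows of chromosome 13 (250 bases before to 50 after a start, 725 protein-coding genes), 52 overlapped a peak. The histone list supplied 46 of the 52, and 6 windows of 5 other genes (0.712%, 95% exact interval 0.262 to 1.54) made up the rest. On chromosome 12, 6 of 723 windows overlapped a peak (0.830%, 0.305 to 1.80). Over the autosomes with promoter sequences for at least 80% of genes, the share without histone genes was 2.26% of 15422 windows. The table of promoters was too incomplete for chromosomes 14 and 15 to be set beside these. TATAAA was present in 58.7% of the histone windows with a peak and CCAAT in 84.8%, against 13.0% and 38.8% of all chromosome 13 windows. GGGCGG was present in 37.0% and 45.1%. The median GC content was 44.7% for the histone windows with a peak and 54.7% for all windows of the chromosome. These are matches of letters and were not tested as sites.

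A peak was called a gene-end peak if it came within 1 kb of either boundary of a protein-coding gene. Failing that, it was placed in the interior of such a gene, then near a gene of another type (same 1 kb margin), and otherwise outside genes. Peaks were fewest on chromosome 13 away from genes and least reduced at gene ends. Outside genes it held 249 peaks at 4.12 per Mb (95% exact Poisson interval 3.62 to 4.66), against 13.8 on chromosome 12, 13.8 on 14 and 15.7 on 15. The pooled density of the 3 chromosomes was 14.3 per Mb, 3.48-fold higher. Inside protein-coding genes it held 244 peaks at 6.17 per Mb (5.42 to 6.99), against 14.5, 15.2 and 19.3, with the pooled density 2.64-fold higher. Near other annotated genes it held 59 peaks at 4.12 per Mb, and the pooled density was 3.71-fold higher. At gene ends, by contrast, its 117 peaks gave 39.2 per Mb (32.4 to 47.0), which lies between 29.6 on chromosome 14 and 44.9 on chromosome 12, below 53.0 on 15. All intervals cover counting error only, and neighbouring peaks are not independent of each other.

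The zones themselves took up similar shares of the 4 chromosomes. Gene ends made up 2.54% of the span of chromosome 13 and from 2.08% to 2.76% of the spans of 12, 14 and 15. Ground outside genes made up 51.5% of chromosome 13, against 50.5% to 51.9%. Its 7.07 protein-coding genes per Mb were more than the 6.62 of the pooled 3 chromosomes. Of all chromosome 13 peaks, 17.5% (14.7 to 20.6) lay at gene ends, against 6.27%, 5.01% and 8.16% on 12, 14 and 15. With the histone genes counted, no other autosome passed 13.6%.

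**Figure D1:**
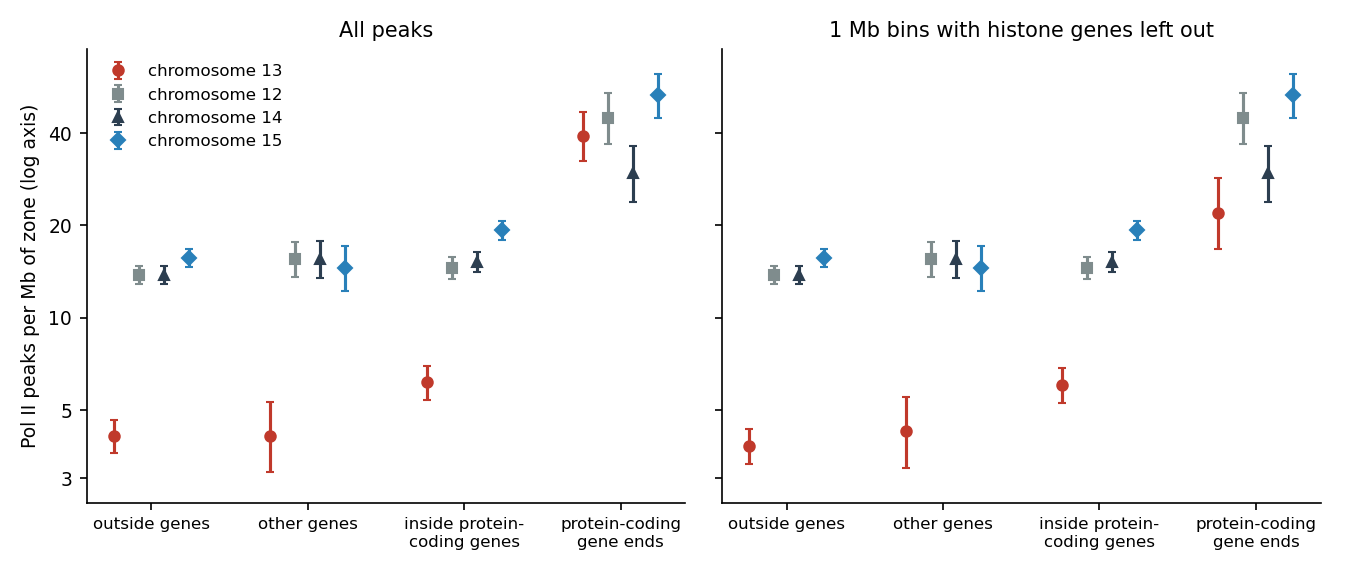
Pol II peaks per Mb of each zone (log axis) on chromosomes 13, 12, 14 and 15 of the OSS_128167 list, with all peaks (left) and with the 1 Mb bins that hold histone genes left out (right). Points are densities and bars are 95% exact Poisson intervals for counting only. At gene ends chromosome 13 sits at 39.2 with all peaks and at 22.0 without the histone bins, while in the other zones it lies below all 3 chromosomes in both panels.

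The high density at gene ends came from the histone cluster. The 53 protein-coding histone genes of the list lie between 21715711 and 23934913, and 50 of them (94.3%, 84.3 to 98.8) had a gene-end peak, where 14.3% of all 21631 protein-coding genes did. With the authors' FDR at most 0.05 the count was 49, against 5.28% of all genes. Those 50 genes shared 29 distinct peaks, so they are not 50 separate observations. The 3 bins of 1 Mb from 21 to 24 Mb held 92 peaks, among them 59 of the 117 gene-end peaks (50.4%) and 55 of the 146 peaks of the chromosome with FDR at most 0.05. Without those bins gene ends on chromosome 13 held 58 peaks at 22.0 per Mb (16.7 to 28.5), below chromosomes 12, 14 and 15 at 44.9, 29.6 and 53.0. The share of its peaks at gene ends was then 10.1% (7.72 to 12.8). That lies inside the range of the other autosomes without such bins, 5.01% on chromosome 14 to 13.5% on 11. The densities inside genes and outside genes were then 6.03 and 3.82 per Mb.

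Every histone family took part. A gene-end peak lay at 5 of 6 linker histone genes (H1f), 12 of 13 H2A genes (H2ac), 13 of 14 H2B genes (H2bc), 9 of 9 H3 genes (H3c) and 11 of 11 H4 genes (H4c). Over the 50 genes the median fold enrichment was 8.08, in a range from 2.52 to 12.9. The highest peak, chr13:21831987-21835127, spanned 3141 bp across H4c18 and H2ac24 with fold 12.9, pileup 35 and FDR 8.24e-29. H1f3, for linker histone H1, followed with fold 12.6 and pileup 34, and H3c7, for histone H3, with fold 11.5 and pileup 31. A peak of 6763 bp over H1f2 and H3c3, chr13:23738701-23745463, was the longest of the chromosome, with fold 10.8. The next longest, 6498 bp, covered H2ac8, H2bc8, H2bc7, H2ac7 and H3c4 with fold 9.93. Fold, pileup and FDR are the authors' values within this list. All 5 of the longest peaks of chromosome 13 lay on histone genes, and the 10 protein-coding genes of highest gene-end fold, H4bc24 among them, were histone genes.

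The histone genes without a peak were H1f1, H2bc1 and H2ac1, the 3 listed last along the cluster. What set these 3 genes apart from the rest of the list was not tested. H4c11, named after its values were seen, was the 1 member whose peak missed an FDR of 0.05, with fold 2.52, pileup 6 and FDR 0.676. Even among peaks outside genes the 5 of highest fold lay beside histone genes, 1.02 to 3.36 kb from H1f3, H1f5, H2ac15 or H4c4, with folds from 4.31 to 6.11.

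Outside the histone list 49 of 776 protein-coding genes of chromosome 13 had a gene-end peak, 6.31% (4.71 to 8.26). The shares were 13.5% on chromosome 12 (11.1 to 16.4), 11.3% on 14 (9.23 to 13.6) and 16.6% on 15 (14.1 to 19.4). Over the other autosomes the share was 14.9%. With the histone genes included, chromosome 13 reached 99 of 829 genes, 11.9%, which is inside the range of its neighbours. With FDR at most 0.05, 16 of the 776 genes remained (2.06%, 1.18 to 3.33), against 2.80% on chromosome 12 (1.69 to 4.34), 3.76% on 14 (2.59 to 5.27) and 7.99% on 15. At that stricter limit the intervals of chromosomes 13, 12 and 14 overlap. Those of chromosome 15 (6.18 to 10.1) and of the other autosomes together (5.32%, 5.01 to 5.64) lie above that of chromosome 13.

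Few genes of chromosome 13 carried any peak. Among the 776 genes outside the histone list 590 had none at their ends or inside, and 24% (21 to 27.1) had at least 1, against 40.6% of 2306 genes on chromosomes 12, 14 and 15. Long genes, which offer most room for a peak, differed most in percentage points and least as a ratio. Of 99 genes of 100 kb or more, 58.6% (48.2 to 68.4) held a peak, against 83.8% (79.1 to 87.8) of 296. For genes from 10 to 100 kb the shares were 24.6% and 45.1%. For genes under 10 kb they were 9.41% (6.12 to 13.7) and 16.1% (13.6 to 19), and these last intervals overlap.

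Interior density differed between genes with and without a gene-end peak, a split made on the same list that chose the chromosome. Outside the histone list, the 42 genes of 5 kb or longer that had such a peak held 34 interior peaks on chromosome 13, 30.5 per Mb (21.1 to 42.6), against 34.6 per Mb (31.2 to 38.3) on the pooled chromosomes. In the 592 genes without a gene-end peak it was 5.45 per Mb (4.74 to 6.24), against 14.5 (13.8 to 15.2). On X the densities with and without a gene-end peak were 23.1 and 4.06 per Mb.

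Distance from the nearest protein-coding gene boundary gave a graded picture. It was measured both inside and outside genes, so the far classes mix interiors of long genes with ground outside genes. With histone bins left out, peak centres within 1 kb of a protein-coding boundary had a density of 20.1 per Mb on chromosome 13 and 34.3 on the pooled chromosomes, a 1.70-fold gap. From 1 to 5 kb the densities were 14.6 and 28.2, a 1.93-fold gap. From 5 to 20 kb they were 5.29 and 15.4, and the gap was 2.91-fold. It was 3.91-fold from 20 to 100 kb (3.56 against 13.9) and 4.17-fold beyond 100 kb (3.34 against 13.9). Density on chromosomes 12, 14 and 15 changed little beyond 5 kb, running between 12.4 and 16.6 per Mb. On chromosome 13 the interval for 20 to 100 kb lay below that for 5 to 20 kb. The X chromosome, also sparse, fell with distance too. It held 9.69 per Mb within 1 kb, 3.94 from 5 to 20 kb and 1.95 beyond 100 kb.

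**Figure D2:**
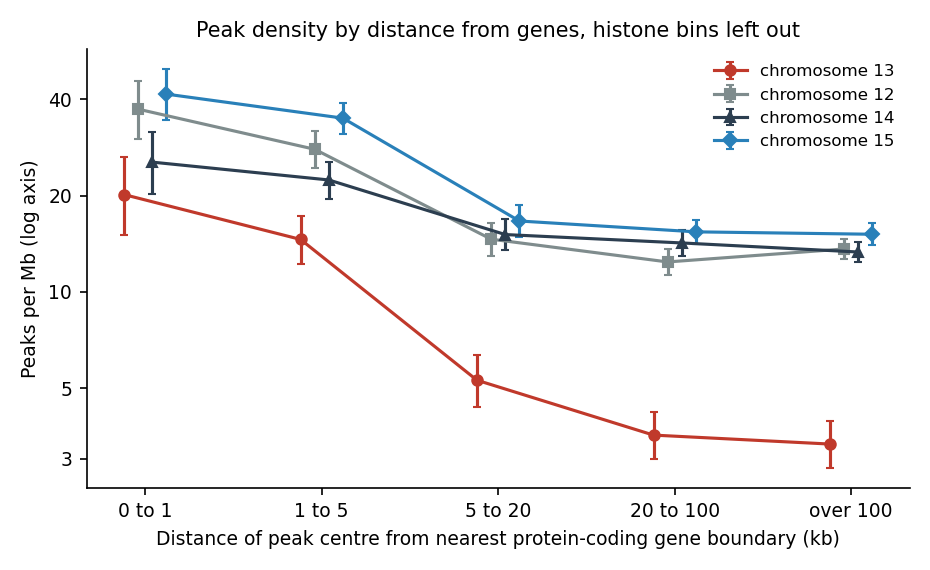
Peaks per Mb (log axis) by distance of the peak centre from the nearest protein-coding gene boundary, with histone bins left out. Points are densities on chromosomes 13, 12, 14 and 15, bars are 95% exact Poisson intervals, and lines join the points of 1 chromosome. Chromosome 13 runs from 20.1 per Mb within 1 kb to 3.34 beyond 100 kb.

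The orientation of genes with a promoter sequence let 5′ and 3′ ends be separated. Outside the histone list, 24 of 675 such genes on chromosome 13 had a peak at the 3′ end alone (3.56%, 2.29 to 5.24), against 60 of 588 on chromosome 12 (10.2%, 7.88 to 12.9) and 9.66% over the covered autosomes. A peak at the 5′ end alone was found for 10 genes (1.48%, 0.713 to 2.71), against 16 (2.72%, 1.56 to 4.38) and 3.36%. The intervals of chromosomes 13 and 12 are apart for 3′ ends and overlap for 5′ ends. For both ends the interval of chromosome 13 lies below that of the covered autosomes, 9.15 to 10.2 for 3′ ends and 3.05 to 3.69 for 5′ ends, and the difference between the ends was not tested. Both ends were marked for 5 and 4 genes.

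Outside genes, the intervals of chromosome 13 lay below those of chromosomes 12 and 14 at every pileup from 5 to 10. Pileup, the authors' height of signal at a peak, had a median of 7 on chromosomes 13, 12 and 14 and of 8 on 15. With histone bins left out, peaks outside genes of pileup 5 to 6 occurred at 1.11 per Mb on chromosome 13, against 3.99 on 12 and 3.56 on 14. At pileup 7 to 8 the densities were 1.89 against 7.31 and 7.65, and at 9 to 10 they were 0.511 against 2.12 and 2.11. At 11 to 15 chromosome 13 held 16 peaks, 0.273 per Mb (0.156 to 0.443), with an interval that overlaps those of chromosome 12 (0.289, 0.171 to 0.457) and 14 (0.477, 0.322 to 0.681). At 16 or more there were 2, 3 and 1 peaks, too few to compare. Chromosome 15 also lay above chromosome 13 at pileup 7 to 8 (7.28 per Mb) and 9 to 10 (4.93). It departed from the others at pileup 5 to 6, with 1.23 per Mb, near chromosome 13, and at 11 to 15, with 1.99.

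At gene ends the tall peaks were histone peaks. Chromosome 13 had 30 peaks of pileup 16 or more, of which 26 lay in the histone bins. Outside those bins none of its 58 gene-end peaks reached 16, which allows up to 1.40 per Mb. Chromosomes 12, 14 and 15 had 7, 3 and 19 such peaks, or 2.80, 0.954 and 6.63 per Mb. The intervals of 12 (1.13 to 5.78) and 14 (0.197 to 2.79) overlap that bound, and only that of 15 (3.99 to 10.3) lies above it. The highest fold on chromosome 13 outside the bins was 4.79, and no peak there reached a fold of 5. Chromosomes 12, 14 and 15 had 14, 8 and 23 peaks at or above 5, with maxima of 13.5, 5.85 and 11.9. For such peaks the interval of chromosome 14, 0.0277 to 0.126 per Mb, overlaps the upper bound of 0.0323 on chromosome 13.

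**Figure D3:**
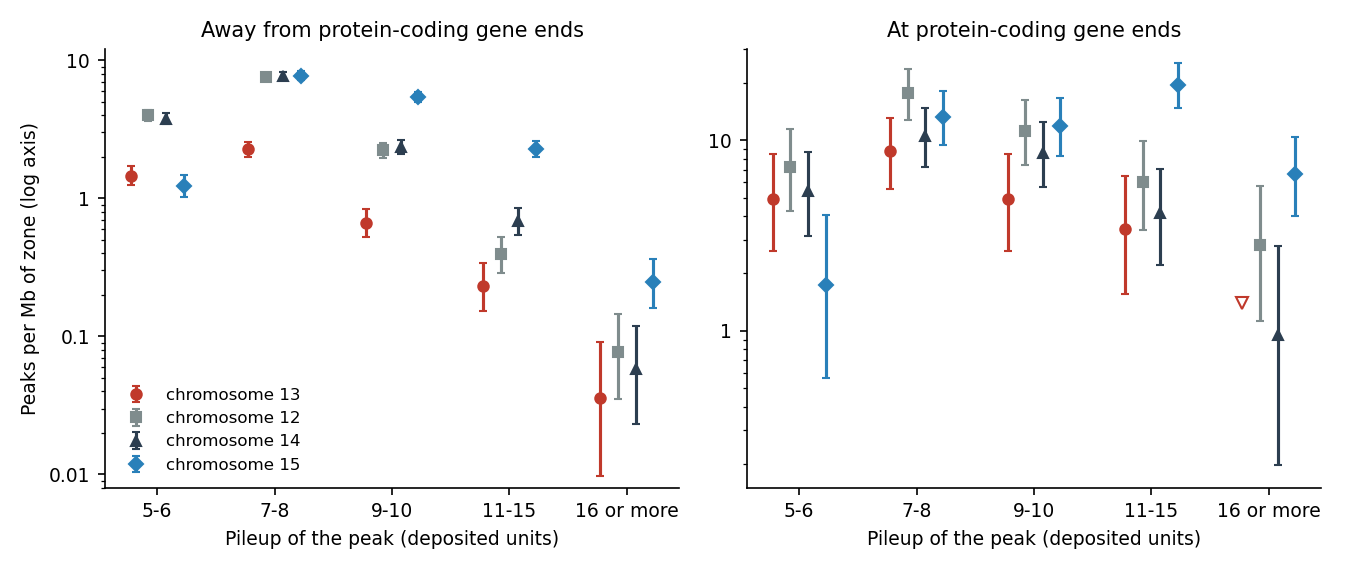
Peaks per Mb of zone (log axis) by pileup class, away from gene ends (left) and at gene ends (right), with histone bins left out. Points are densities, bars are 95% exact Poisson intervals, and the open triangle is the upper bound of 1.40 for a class in which chromosome 13 had no peak. Away from gene ends chromosome 13 lies at 2.26 per Mb at pileup 7 to 8, against 7.56 on chromosome 12 and 7.66 on 14.

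The background that the caller set against each peak can be worked out as (pileup + 1) / fold − 1. Its lowest and most common value in the list was 1.78, and 79.1% of chromosome 13 peaks stood at that floor. On chromosome 12 it was 69.5%, on 14 65.7% and on 15 15.3%. Among the other 18 autosomes the share ran from 0.398% to 69.5%, below chromosome 13 in each, and on X it was 83.1%. The share at the floor was thus highest on the pair of chromosomes with fewest peaks, X and 13, and its part in the result was not tested. At the floor a peak of pileup 6 has a fold of 2.52, on any chromosome. Peak length did not set chromosome 13 apart, with a median of 271 bp against 267 bp for the pooled chromosomes.

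Peaks were thin along most of the chromosome, 4.57 per Mb outside 3 denser stretches. Those were the histone bins from 21 to 24 Mb with 92 peaks (30.7 per Mb) and, picked after their peaks were seen, 49 to 50 Mb with 30 peaks and 65 to 67 Mb with 38. In 23 whole bins of 5 Mb, chromosome 13 held 13 to 51 peaks away from gene ends with a median of 20. Medians were 69 on chromosome 12, 71 on 14 and 86 on 15, and the lowest bin of those 3 chromosomes held 50. All but 1 of the chromosome 13 bins, 22 of 23, fell below that lowest bin. The exception reached 51 and included the stretch from 49 to 50 Mb, where 25 of the 30 peaks touched Cenpp, whose span holds the matrix genes Aspn and Ogn.

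**Figure D4:**
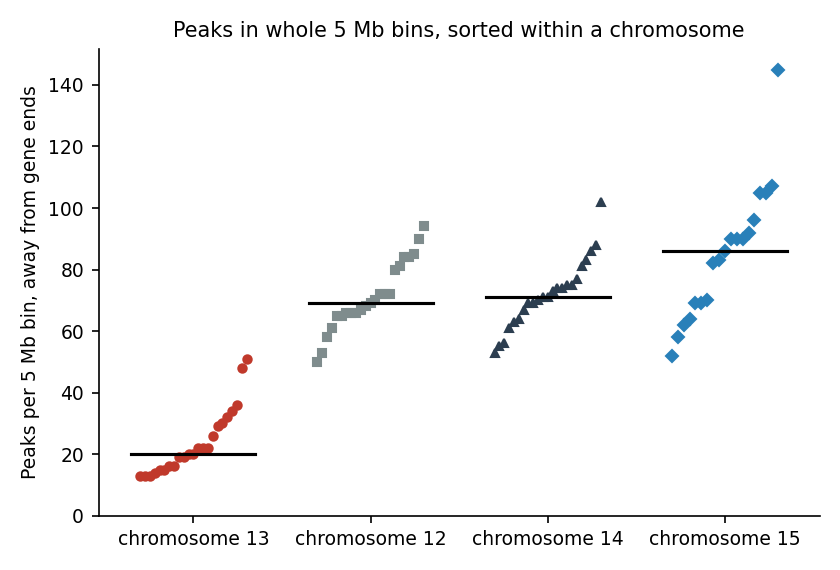
Peaks away from protein-coding gene ends in whole 5 Mb bins of chromosomes 13, 12, 14 and 15, sorted from low to high within a chromosome, with the median as a bar. Each point is 1 bin. Chromosome 13 bins run from 13 to 51, and the lowest bin of the other chromosomes is at 50.

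Empty stretches were longer on chromosome 13. The median distance between neighbouring peaks was 73.6 kb, against 40.7, 40.7 and 28.0 kb on 12, 14 and 15. Gaps of 1 Mb or more numbered 11, against 0, 0 and 1. The longest, 1.77 Mb at chr13:34911597-36679673, held 8 whole protein-coding genes, among them Fars2 (mitochondrial phenylalanyl-tRNA synthetase), Cdyl (a chromodomain protein), Lyrm4 (iron-sulfur cluster assembly) and Eci2 (fatty acid oxidation). The next, 1.60 Mb at chr13:102129875-103733127, held the kinase gene Mast4 and Cd180, a Toll-like receptor relative of B cells. A gap of 1.35 Mb at chr13:43081613-44434734 took in 8 genes, including Gfod1, Ranbp9, Rnf182 and Sirt5, a mitochondrial deacylase of the family of SIRT6. A further gap of 1.35 Mb at chr13:81947158-83294511 held no protein-coding gene, and one of 1.16 Mb at chr13:70658371-71820096 held the metalloprotease gene Adamts16.

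Among genes of bone and connective tissue matrix, 2 of 18 had a gene-end peak (11.1%, 1.38 to 34.7), and 10 had no peak at all. That interval spans both the 6.31% of chromosome 13 genes outside the histone list and the 14.3% of all protein-coding genes. Ogn, the small leucine-rich proteoglycan osteoglycin, had fold 3.59, pileup 9 and FDR 0.04997 at its 3′ end, with 9 peaks over 25% of the gene. Ctsl, the lysosomal protease cathepsin L, had fold 2.44 and FDR 0.496. Aspn, for asporin, had no gene-end peak but 11 peaks inside, over 22.2% of its length. Omd and Ecm2, which lie beside Aspn and Ogn within the span of Cenpp, had none at the ends or inside. Vcan, for the proteoglycan versican, had 1 interior peak over 0.372% of the gene. Cenpp, for a centromere protein, had the most peaks of any gene on the chromosome, 25, but its 188926 bp contain all 4 of these proteoglycan and matrix neighbours, so peaks are shared. Aopep, an aminopeptidase gene of 361204 bp, held 10.

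Of 12 immediate early and stress genes, 4 had a gene-end peak (33.3%, 9.92 to 65.1), all with FDR at most 0.05, and 6 had no peak. The interval spans the 14.3% of all protein-coding genes and overlaps those of the other lists except the histones. Klf6, a zinc-finger transcription factor gene, had fold 4.31 and pileup 11 in a peak 0.750 kb past its 3′ end, with 6 peaks over 27.1% of the gene. Plk2, a polo-like kinase gene, had fold 4.31 and pileup 11 in a peak of 2103 bp beginning 0.458 kb past its 3′ end, and peaks over 33.4% of its length. Arrdc3, for an arrestin-related adaptor, had fold 4.21 and pileup 13 at its 5′ end. Gadd45g, a growth-arrest gene, had fold 3.59 and pileup 9 in a peak that began 0.0800 kb past its 3′ end. Nfil3, a transcription factor gene, Edn1, for endothelin, and F2r and F2rl1, for protease-activated receptors, had no peak.

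Among 23 lineage and signalling genes 4 had a gene-end peak (17.4%, 4.95 to 38.8) and 11 had none at all. This share, too, has an interval that spans 6.31% and 14.3%. Fst, for the activin antagonist follistatin, had fold 4.31 and FDR 0.00235. Id4, for an inhibitor of helix-loop-helix factors, had fold 3.95 and FDR 0.0120 at its 5′ end. Gas1, for a hedgehog co-receptor, had fold 3.23 with FDR 0.159, and Pik3r1, for a PI3-kinase regulatory subunit, fold 2.16 with FDR 0.966. Msx2, a homeobox gene of bone, and Bmp6, for a bone morphogenetic protein, had no peak. Ptch1 and Gli3, of the hedgehog pathway, had 1 and 3 interior peaks and no gene-end peak.

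Housekeeping genes had a share whose interval spans that of all genes outside the histone list. Of 32, 3 had a gene-end peak (9.38%, 1.98 to 25) and 21 had no peak. Nsd1, for a histone methyltransferase, had fold 3.23 with FDR 0.159, and Rps23, for a ribosomal protein, fold 2.57 with FDR 0.507. Cox7c, Hnrnpa0, Macroh2a1 and Idi1, for respiratory, RNA-binding, histone-variant and isoprenoid proteins, had none. Of 20 genes of other tissues, such as Ryr2 of heart and Prl of pituitary, 0 had a gene-end peak, which allows a share of up to 16.8% (95% exact bound), and 4 had an interior peak. Genes in none of the lists had one in 36 of 671 cases, 5.37%. Intervals for the short lists are wide, and the interval of the histone list alone lies apart from those of the other 5.

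**Figure D5:**
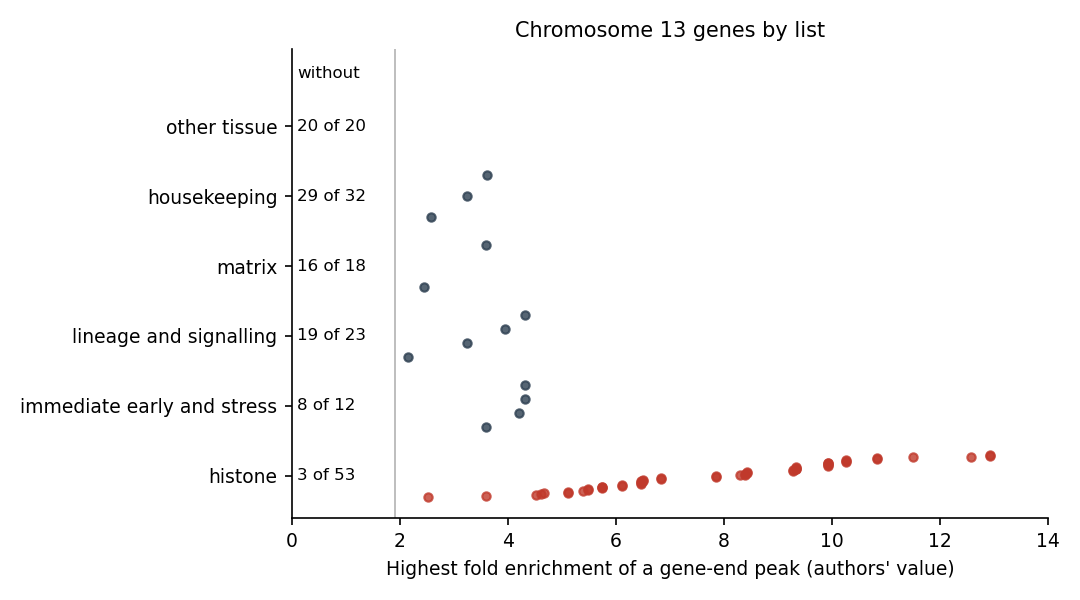
Highest fold enrichment (the authors' value) of a gene-end peak for each member of the 6 chromosome 13 gene lists, with the number of members without such a peak printed at the left. Each point is 1 gene, spread vertically for legibility, and histone genes that share a peak share a value. Histone genes reach 12.9, and no gene of the other lists passes 4.31.

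Outside the histone-named genes the highest gene-end fold was 4.79 at 2210016F16Rik, with pileup 13 and FDR 0.000150. BC005537, Enc1, Klf6, Plk2 and Fst tied at 4.31, because at the background floor equal pileups give equal folds.

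The untreated list was not used to choose chromosome 13. It held 18 peaks there of 1694 (1.06%), or 0.153 per Mb (0.0909 to 0.243). Chromosomes 12, 14 and 15 held 4, 30 and 37, or 0.0333, 0.241 and 0.356 per Mb, and the pooled density was 0.204 (0.159 to 0.257). In that list chromosome 13 lay between 12 and 14, and its interval overlapped the pooled one. However, 13 of its 18 peaks lay in the stretch from 65 to 67 Mb, and without it the other 5 gave 0.0434 per Mb (0.0141 to 0.101). That stretch was picked after its peaks were seen. No stretch was left out of chromosomes 12, 14 and 15, so the lower value cannot be compared with their pooled density. The remaining autosomes, 12, 14 and 15 included, held 0.684 per Mb together. Of its 18 peaks 2 had an FDR at most 0.05, and 15 had an FDR of 1. A single protein-coding gene of chromosome 13, H4c4 for histone H4, had a gene-end peak there (fold 3.26, pileup 5.43, FDR 1), where 0.398% of all protein-coding genes did. The untreated peaks that overlapped an OSS_128167 peak numbered 4: that of H4c4, and those at chr13:65613068-65613415, chr13:65911767-65911970 and chr13:66273858-66274103, which lay outside genes. The 2 lists differ in length and in pileup unit, so no change between conditions can be read from them.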

How the data were processed

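The submitters' processing notes name fastp, BWA and the build mm10. No source used here names the peak caller, its limits or how the inputs were used. For every peak the deposited list of a library gives position, length, pileup (height of signal), fold enrichment as a ratio, p-value and FDR. All of these values are the authors'. The largest p-value in the deposited OSS_128167 list was 0.00999, and on chromosome 13 an FDR at most 0.05 was given for 146 of 669 peaks. The input libraries were not analysed here.

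Genes came from RefSeq, GRCm38.p6, the assembly behind mm10: 21631 protein-coding genes on 19 autosomes and X. Their table has no strand. Promoter sequences, with strand, matched 725 of the 829 protein-coding genes of chromosome 13. No genome sequence was used. Peaks were assigned to zones by any overlap of at least 1 bp, and zone lengths were computed on merged intervals between the first and last annotated gene of a chromosome. Intervals are exact Poisson for densities and Clopper-Pearson for shares, at 95%. The zone code was checked on 2200 simulated intervals against a direct search, and 0 differed. The scripts ran under Python 3.11.15 with pandas 2.3.3, numpy 2.4.6, matplotlib 3.10.9 and scipy 1.17.1.

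The chromosome, the gene lists and the histone bins were chosen with earlier results of these data known. Genes were named by rule: the 10 of highest gene-end fold, up to 6 members of each list by fold and up to 4 without a peak in list order, the 5 longest peaks, the 5 outside genes of highest fold, the 5 longest gaps, the 5 genes with most peaks, and the untreated peaks that overlap. Vcan, Ryr2, Prl, H4c11 and the genes below the first 10 by fold were added after their values were seen. The values of 1 gene are not reported here.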

Additional observations from a re-analysis of the deposited data

How the results depend on the processing

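Over 57 alternatives for 8 results, 36 left the value within its counting interval, 20 moved it and 1 turned its sign. The sign turned for the difference in median pileup, with FDR at most 0.05. A turn was counted only where the main interval excluded no difference. The main interval of the gene-end ratio, 0.752 to 1.155, did not. That ratio passed 1 in some settings, which were counted as within the interval or moved. An alternative chosen after seeing the data left out the stretch from 65 to 67 Mb and moved the untreated density from 0.153 to 0.0434 per Mb. The ratio of densities inside protein-coding genes, chromosome 13 over the pooled chromosomes, was 0.379 and stayed between 0.350 and 0.403 under all 10. With FDR at most 0.05 the overall ratio went from 0.361 to 0.548, the ratio outside genes from 0.287 to 0.400, the gene-end ratio from 0.935 to 1.5, the gene-end share of peaks from 17.5% to 40.4%, the share of genes with a gene-end peak from 11.9% to 7.84%, and the difference in median pileup from −1 to 1. With that FDR limit and the histone bins left out, chromosome 13 held 0.796 peaks per Mb, against 2.27 on the pooled chromosomes. Outside genes it then held 0.596 against 1.86 per Mb, and at gene ends 6.84 against 13.2. Of its 91 such peaks, 18 lay at gene ends. A p-value limit of 0.001 gave 20.8% of peaks at gene ends and a pileup difference of 0. Merging peaks under 1 kb apart gave an overall ratio of 0.328, a gene-end ratio of 0.723 and a gene-end share of 13.4%. Leaving out histone bins gave 0.320, 0.525 and 10.1%, and 6.55% of genes. Gene-end windows of 500 bp and 2 kb gave 12.6% and 26.2% of peaks, and the wider one 15.3% of genes. Counting all annotated genes gave a gene-end ratio of 0.696 and 5.47% of genes. The causes were not tested beyond what each construction shows. No paired analysis was possible because each condition has 1 Pol II library and the labels carry no replicate numbers. For the same reason no replicate could be left out.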

Other observations

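Genes of lncRNAs and pseudogenes were marked less often on chromosome 13, while for the smaller classes of non-coding gene the intervals overlap. A peak within 1 kb of an end was found at 14 of 695 lncRNA genes (2.01%, 1.11 to 3.36), against 4.74% (3.78 to 5.86) on chromosomes 12, 14 and 15 pooled. For pseudogenes it was 8 of 486 (1.65%, 0.713 to 3.22), against 4.61% (3.52 to 5.91). Small nuclear RNA genes, whose products build the spliceosome, had 0 of 31 (95% exact upper bound 11.2%) against 8 of 124 (2.83% to 12.3%). Small nucleolar RNA genes, which guide RNA modification, had 0 of 49 (upper bound 7.25%) against 10 of 161 (3.02% to 11.1%). For miRNA genes it was 1 of 36 (2.78%) against 3.16% on the pooled chromosomes. The 105 tRNA genes, transcribed by another polymerase, had 1, n-TMcat9, beside the histone gene H4c8. H2ac5-ps, a histone pseudogene, lay within 1 kb of the peak of fold 10.8 at H1f2 and H3c3.

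The stretch from 65 to 67 Mb stood apart from the rest of chromosome 13. It held 38 OSS_128167 peaks, 19 per Mb, against 4.57 per Mb over the rest without the stretches at 21 to 24 and 49 to 50 Mb. Of those 38 peaks 23.7% stood at the background floor, against 84.9% of the rest, and 19 lay outside genes. The stretch also held 13 of the 18 untreated peaks of the chromosome, 1 of them with FDR at most 0.05. Among its annotated genes were 40 pseudogenes, many of them of vomeronasal receptors, and 24 protein-coding genes.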
